A study of Mus musculus with 12 samples.

Results

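The genes described here encode the constitutive proteasome of the mouse kidney, together with its assembly chaperones and regulators. They were taken by name, as protein-coding genes whose symbol begins with *Psma*, *Psmb*, *Psmc*, *Psmd*, *Psme*, *Psmf* or *Psmg* followed by a number, and the immunoproteasome genes *Psmb8*, *Psmb9* and *Psmb10* were left out. This rule took 47 of the 35275 genes in the deposited table and used no measured value. RNA was sequenced from the kidneys of 12 C57BL/6J mice at 6 months of age, with 2 females and 2 males in each group of 4. The groups were WT mice, labelled as controls, RC/RC mice, which are homozygous for a knock-in missense allele of *Pkd1* and in which polycystic kidney disease advances slowly, and RC/RC:*Casp1*KO mice, which are RC/RC mice that are also homozygous for a small TALEN-made deletion at the end of exon 6 of *Casp1*, the gene for Caspase-1. The knockout is present in every cell of the animal and comes from a single deletion, called Del3, so a comparison of RC/RC:*Casp1*KO with WT differs in both genes. Libraries held 20556335 to 22656309 counted reads in WT, 18019819 to 24284831 in RC/RC and 18738755 to 24869454 in RC/RC:*Casp1*KO. The columns of the table do not name the sex of a mouse, so females and males were analyzed together, and mice are numbered within their group only to tell them apart. The libraries of a group did not lie at equal distances. By the chi-square per degree of freedom between 2 mice over all genes, WT mice 1 and 2 (17.7) and 3 and 4 (16.4) were close, beside 89.8 to 127 for the other WT pairs, and knockout mice 1 and 2 (15.8) and 3 and 4 (31.8) were close, beside 67.1 to 93.4. In RC/RC, mice 3 and 4 were the closest pair (37.2), and the others were at 67.6 to 128. The sex of these mice and the distances between them cannot be tied together from the labels, and no fit here has a term for either, so this difference counts as spread within a group.

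The proteasome is the large protease that breaks down proteins tagged with ubiquitin in the cytosol and nucleus. Its 20S core particle is a barrel of stacked rings of alpha and beta subunits, and the proteolytic sites face the inside of the barrel. The 19S regulatory particle caps the barrel, with a base whose ATPases unfold the substrate and a lid that removes ubiquitin. Other caps, the activators, open the barrel without ubiquitin, and dedicated chaperones assemble the rings and the base. In cells exposed to interferons, 3 catalytic beta subunits are replaced by the immunoproteasome subunits, and the activator made of the *Psme1* and *Psme2* products rises with them. The tubules of the kidney are a tissue of high protein turnover.

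Of the 47 genes, 14 encode the subunits of the 20S core, 17 those of the 19S particle, 3 chaperones of the 19S base and 4 chaperones of the 20S core. A further 4 encode activators and *Psmf1* encodes an inhibitor. *Psma8* and *Psmb11* encode subunits known from the testis and thymus, and were nearly absent, with 2 to 18 reads and 0 to 2 reads per mouse. They did not pass the filter on low counts and were not tested. The symbols *Psmc3ip*, a cofactor of meiotic recombination, and *Psme2b* also match the rule, without an assigned role in the particle. The remaining 45 genes were tested in each comparison. The sequences shared by *Psme2* and *Psme2b* were 99.0% identical over 795 bases, so reads of the pair could be split in counting, but *Psme2b* had at most 77 reads in any mouse and *Psme2* at least 774. Near-identical processed pseudogenes of *Psma4*, *Psma5* and *Psmd2* were counted at no more than 15 reads in any mouse. The spans of *Psmd5*, *Psmd13* and *Psmc3* overlap *Cutal* by 573 bp, *Sirt3* by 342 bp and *Slc39a13* by 4579 bp on the opposite strand. *Psmc3ip* overlaps *Mlx* by 385 bp, also on the opposite strand, where *Mlx* had 582 to 964 reads per mouse and *Psmc3ip* as few as 57. The use of strand in counting is not given in the sources used here, so reads in these overlaps cannot be told apart.

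As a check on the labels, *Casp1* was at 3.33, 3.86, 4.24 and 2.62 CPM (read counts scaled to the size of the library) in the RC/RC mice and at 0.382, 0.667, 0.665 and 1.06 CPM in the RC/RC:*Casp1*KO mice. The 4 knockout mice lay below every RC/RC and every WT mouse, and the gene fell by 2.35 on the log2 scale against RC/RC (SE 0.32, edgeR adjusted p = 0.00514). *Pkd1*, whose RC allele is a missense change that does not remove the transcript, did not pass the test in any comparison and checks no label. Kidney identity was clear from *Slc34a1* of the proximal tubule, with a WT mean of 5850 CPM, and *Umod* of the thick ascending limb, with 3948 CPM.

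In WT kidneys the RNA levels of the 31 core subunits differed by several fold. Per gene length, their WT mean ran from 23.3 FPKM (reads scaled to gene length and to the reads counted in the library) for the ATPase gene *Psmc2* to 136 FPKM for *Psmb5*, a 5.83-fold range. The 20S genes had a median of 81.6 FPKM and the 19S genes a median of 42.3 FPKM. When the 31 genes were ordered by their WT level, 26 of the 30 pairs of neighbours overlapped between mice, so most single steps lie within the spread. Neighbours in a sorted list are close by the sorting, so this does not bear on genes further apart in the order. *Psmb5* stood at the top, with 136 ± 10.1 FPKM (SD, n = 4), and its WT mice did not overlap those of the next gene, *Psmb4*, with 109 ± 9.52 FPKM. The chaperones of the base (*Psmd5*, *Psmd9*, *Psmd10*) were lower, between 10.9 and 14.1 FPKM, and the 20S chaperone *Psmg3* was the lowest of that family, with 1.32 FPKM. The core subunits also varied little between WT mice. The median SD of log2 CPM over the 31 genes was 0.080 in WT, beside 0.194 for 12667 expressed genes, which were not matched to them in level. *Psmb7*, which encodes the trypsin-like subunit, had values of 116, 119, 117 and 117 CPM.

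That uniformity was not seen in the mutant groups. In RC/RC mice the median SD of the core subunits was 0.220, close to the 0.239 of all expressed genes, and in RC/RC:*Casp1*KO mice it was 0.167, beside 0.181. With each gene set against its WT mean, the median over the 31 subunits was -0.17, 0.07, 0.24 and 0.14 log2 units in RC/RC mice 1 to 4. Mouse 1 lay below every WT mouse and mice 2 to 4 above every WT mouse. The medians of the 20S and the 19S genes lay on the same side of the WT mice in RC/RC mice 1, 3 and 4. In RC/RC mouse 2 they did not, as the 20S median of 0.18 was above every WT mouse and the 19S median of -0.065 below every WT mouse. In RC/RC:*Casp1*KO mice 1 to 4 the median was -0.20, -0.35, 0.00 and -0.26, so 3 mice lay below every WT mouse and mouse 3 lay among them. Counted by gene, 2 of the 31 subunits exceeded their WT mean in RC/RC mouse 1, whereas 19, 26 and 27 did so in RC/RC mice 2 to 4. In the RC/RC:*Casp1*KO mice, 1, 0, 17 and 0 did so. Summed over the 31 genes, the level was 2917 to 3151 CPM in the WT mice, 2635 to 3555 CPM in the RC/RC mice and 2401 to 2998 CPM in RC/RC:*Casp1*KO.

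**Figure D1:**
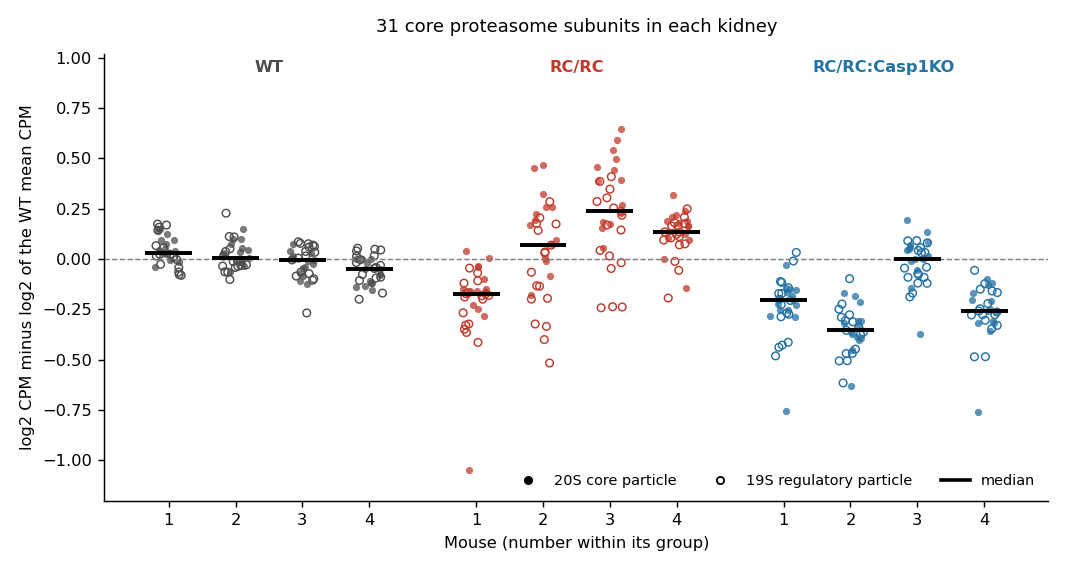
The 31 core subunits in each of the 12 kidneys, as log2 CPM minus the log2 of the WT mean CPM of the same gene; filled points are 20S genes, open points 19S genes, and bars the median of a mouse. The bars of the WT mice lie near 0, RC/RC mouse 1 lies at -0.17 against 0.07 to 0.24 for the other RC/RC mice, and RC/RC:Casp1KO mouse 3 lies at 0.00 against -0.20 to -0.35 for the others.

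The first comparison asks which of these genes differ in the cystic kidney. In RC/RC against WT, the activator genes *Psme1* and *Psme2* were upregulated and the core subunits did not pass the test. The 2 upregulated genes are 4.44% of the 45 tested, beside 9.76% of 15243 genes called higher (edgeR's quasi-likelihood test, adjusted p under 0.05). None was called lower, beside 3.18% of all genes. At an unadjusted p under 0.05, 5 of the 45 (11.1%) were higher, beside 17.3% of all genes, and 1 was lower (*Psme3*), beside 1825 of 15243 genes. DESeq2 and limma also called 0 lower. The groups did not overlap upward for these same 2 genes, beside 12.6% of all genes, and did not overlap downward for *Psme3*, beside 7.06%.

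*Psme1* and *Psme2* lie on chromosome 14 of mm10 at chr14:55578123-55581529 (plus strand) and chr14:55587441-55591113 (minus strand). Their products form the ring-shaped PA28 cap, which is known for its part in antigen processing. *Psme1* was at 51.9, 46.0, 35.4 and 37.2 CPM in WT mice and at 63.8, 94.2, 70.2 and 56.4 CPM in RC/RC mice. Every RC/RC mouse was above every WT mouse, and the change was 1.67-fold (log2 fold change 0.74, SE 0.18, edgeR adjusted p = 0.0267). *Psme2* was at 49.1, 49.6, 38.9 and 40.0 CPM in WT and at 58.4, 80.3, 70.9 and 52.8 CPM in RC/RC. Here too the groups were separate, with a log2 fold change of 0.56 (SE 0.15, edgeR adjusted p = 0.0392). Without RC/RC mouse 2 or 3, or without WT mouse 2, 3 or 4, neither gene passed the threshold, and without WT mouse 1 only *Psme1* did. In the fits that called neither, 954 to 1243 of all genes were called higher in place of 1487. *Psme1* overlaps *Emc9* on the opposite strand by 14 bp.

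The other activators did not pass the test. *Psme3*, whose product forms the nuclear PA28 gamma ring, was at 115, 113, 103 and 104 CPM in WT and at 82.0, 85.6, 94.1 and 103 CPM in RC/RC. The RC/RC mice all lay below the WT mice, the highest by a narrow margin, and the log2 fold change of -0.26 (SE 0.11) did not pass the test (edgeR adjusted p = 0.150). *Psme4*, which encodes the large PA200 cap, had a log2 fold change of -0.38 (SE 0.21, edgeR adjusted p = 0.252). *Psmg4*, a small chaperone of the alpha ring, had a log2 fold change of 0.44 (SE 0.17), and *Psmb1*, a structural beta subunit, 0.31 (SE 0.13), with edgeR adjusted p of 0.127 and 0.158.

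Among the core subunits the fold changes were small and mostly positive. Of the 14 genes of the 20S core, 12 had a positive log2 fold change, with a median of 0.16. Of the 17 genes of the 19S particle, 10 were positive, with a median of 0.03. Over all 45 genes, 32 were positive (71.1%), beside 47.8% of all genes, with a median of 0.08 beside -0.02, and 13 were negative (28.9%), beside 52.2% of all genes. With 1 mouse left out at a time, this median ran from 0.031 to 0.14. Between 12 (without RC/RC mouse 1) and 18 (without RC/RC mouse 3) of the 45 genes were then negative. The catalytic subunits did not share a direction. *Psmb6*, the caspase-like subunit, was at 99.1, 147, 154 and 119 CPM in RC/RC against 113, 118, 98.2 and 95.3 CPM in WT (log2 fold change 0.29, SE 0.16). *Psmb5*, the chymotrypsin-like subunit, was at 60.2, 110, 129 and 112 CPM in RC/RC against 133, 119, 127 and 118 CPM in WT (log2 fold change -0.27, SE 0.21). RC/RC mouse 1 had less than every other kidney of the series for *Psmb5*, and neither gene passed the test (edgeR adjusted p = 0.402 for *Psmb5* and 0.252 for *Psmb6*). With 1 mouse left out at a time, the log2 fold change of *Psmb5* ran from -0.40 to -0.10. *Psmb7* had a log2 fold change of 0.07 (SE 0.13). The scaffold gene *Psmd2* (-0.22, SE 0.11) and the lid gene *Psmd3* (-0.24, SE 0.14) were the 19S subunits closest to a call in the lower direction, with edgeR adjusted p of 0.208 and 0.284.

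The second comparison asks what the loss of *Casp1* changes within the cystic kidney. In RC/RC:*Casp1*KO against RC/RC, *Psme1*, *Psme2*, *Psmg4* and *Psmb2* were downregulated, and nearly all other proteasome genes had lower means without passing the test. The 4 called genes are 8.89% of the 45 tested, beside 4.41% of 15428 genes called lower. None was called higher by edgeR, DESeq2 or limma, and 0 were higher at an unadjusted p under 0.05, beside 7.23% and 15.3% of all genes. At an unadjusted p under 0.05, 18 of the 45 genes (40.0%) were lower, beside 16.4% of all genes. In sign alone, 41 of the 45 (91.1%) were negative, beside 52.5% of all genes, with a median log2 fold change of -0.28 beside -0.03. Genes of a single complex vary together from mouse to mouse, so these counts are not 45 separate observations. The RC/RC mice are the same animals as in the comparison with WT, so their high *Psme1* and *Psme2* values enter both.

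*Psme1* was at 47.8, 43.1, 43.3 and 51.5 CPM in the RC/RC:*Casp1*KO mice, and *Psme2* at 46.4, 45.6, 43.7 and 46.6 CPM. For both genes every knockout mouse was below every RC/RC mouse and within the range of the WT mice. *Psme1* fell by 0.62 on the log2 scale (SE 0.15, edgeR adjusted p = 0.0341) and *Psme2* by 0.53 (SE 0.13, edgeR adjusted p = 0.0345). *Psmg4* (chr13:34162964-34178172) was at 13.5, 19.7, 18.7 and 15.4 CPM in the RC/RC mice and at 10.8, 10.01, 13.6 and 9.85 CPM in RC/RC:*Casp1*KO. Knockout mouse 3 was level with the lowest RC/RC mouse and the other 3 were below, a log2 fold change of -0.61 (SE 0.17, edgeR adjusted p = 0.0443). *Psmb2* (chr4:126677630-126709714), a structural beta subunit, was at 49.5, 61.1, 66.9 and 57.1 CPM in the RC/RC mice and at 46.2, 38.6, 46.2 and 44.4 CPM in RC/RC:*Casp1*KO. These groups did not overlap, and the log2 fold change was -0.43 (SE 0.12, edgeR adjusted p = 0.0453). In all, 4 genes had groups that did not overlap downward (*Psme1*, *Psme2*, *Psmb2* and the lid gene *Psmd8*), 8.89% beside 8.67% of all genes, and none upward, beside 11.8%.

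**Figure D2:**
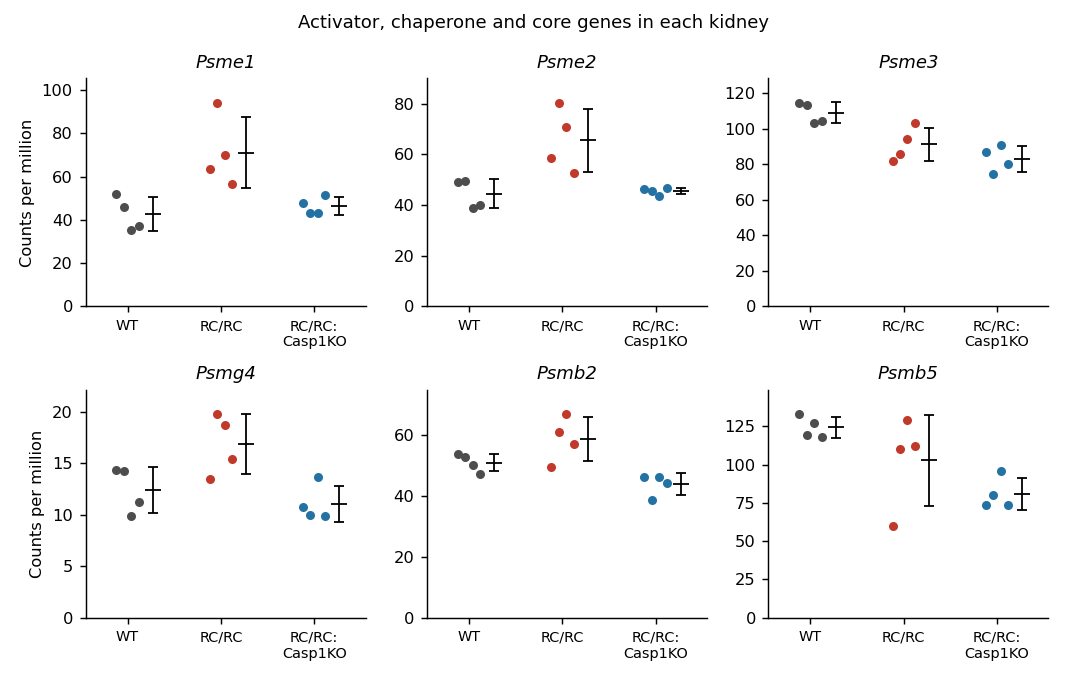
CPM of 6 proteasome genes in each kidney (points, 4 mice per group), with the mean and SD of the group beside them; each axis starts at 0. Psme1 and Psme2 are highest in the RC/RC mice, Psmb5 is lower in all 4 RC/RC:Casp1KO mice than in the WT mice, and RC/RC mouse 1 has the lowest Psmb5 value, 60.2 CPM.

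Within the core, all 14 genes of the 20S particle had a negative log2 fold change, with a median of -0.37, and 9 had an unadjusted p under 0.05. Of the 17 genes of the 19S particle, 14 were negative, with a median of -0.28, and 5 had an unadjusted p under 0.05. The 4 structural beta genes had the lowest median of these families, -0.45, and the 7 alpha ring genes a median of -0.26. *Psmb6* (95.8, 85.7, 111 and 85.0 CPM in the knockout mice) had a log2 fold change of -0.47 (SE 0.16, edgeR adjusted p = 0.0870). *Psmb7* had -0.29 (SE 0.15) and *Psmb5* -0.36 (SE 0.22), and neither passed the test (edgeR adjusted p = 0.221 and 0.291). The genes with a positive value were *Psme4* (0.23, SE 0.20) and, among the core, the 19S genes *Psmd1* (0.09, SE 0.14), *Psmd3* (0.06, SE 0.13) and *Psmd2* (0.04, SE 0.11), each smaller than 2 of its SE. *Psmd1* and *Psmd2* encode the large scaffold subunits of the 19S base.

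**Figure D3:**
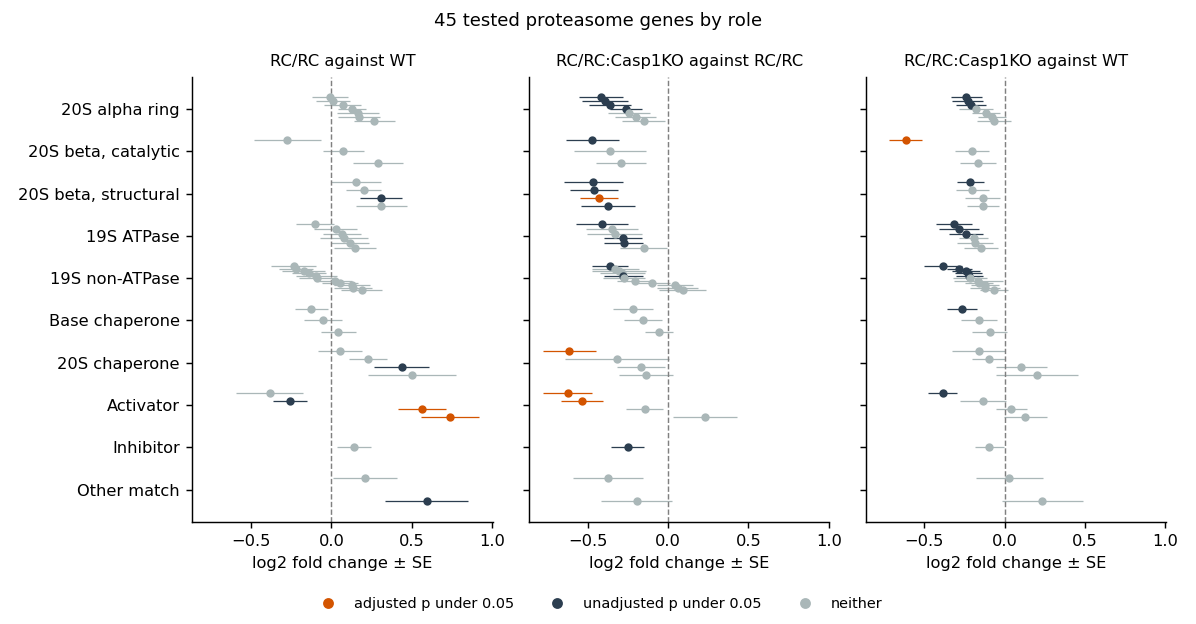
The log2 fold change with its SE for the 45 tested genes, grouped by role, in each comparison (4 mice against 4). In RC/RC:Casp1KO against RC/RC all 14 genes of the 20S rings are negative and Psme1, Psme2, Psmg4 and Psmb2 pass the adjusted threshold; in RC/RC:Casp1KO against WT all 31 core subunits are negative and Psmb5 alone passes.

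The count of calls depended on single mice. Without RC/RC mouse 1, the RC/RC mouse with low core subunits, 15 genes were called lower, 11 of them not in the original 4. Without RC/RC mouse 2 or 3 or knockout mouse 1 or 2 none was, without knockout mouse 3 or 4 there was 1, and without RC/RC mouse 4 there were 2. By gene, *Psme1* kept its call in 3 of these 8 fits (without RC/RC mouse 1 or 4 or knockout mouse 4), *Psme2* in 2 (without RC/RC mouse 1 or 4), *Psmg4* in 2 (without RC/RC mouse 1 or knockout mouse 3) and *Psmb2* in 1 (without RC/RC mouse 1). The calls over all genes moved as well. From 681 of 15428 genes called lower, they went to 1300 of 15668 without RC/RC mouse 1, to 136 and 65 without RC/RC mice 2 and 3, and to 79 and 58 without knockout mice 1 and 2. Without knockout mice 3 and 4 and RC/RC mouse 4 they were 131, 688 and 899. The median stayed between -0.36 and -0.23 in all 8 of these fits.

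The fold changes in this comparison also followed gene length. Across the 45 genes the log2 fold change correlated with log2 gene length (Pearson's r = 0.65, Spearman's rho = 0.57, across genes, which are not independent and share the 8 libraries), and across all genes tested the values were 0.21 and 0.30. All 32 proteasome genes under 2000 bp were negative, with a median of -0.32, beside 2993 of 4260 genes of that length class with a median of -0.22. The 13 of 2000 bp or more had a median of -0.15, beside 0.04 for all such genes. The slope of log2 level on log2 gene length, relative to the mean of all mice over 12667 genes, was 0.04, -0.15, -0.19 and -0.05 in RC/RC mice 1 to 4 and 0.07, 0.10, 0.01 and 0.14 in the knockout mice. In WT mice 1 to 4 the slope was -0.07, -0.04, 0.07 and 0.06. RC/RC mouse 1 is thus the RC/RC mouse with both the low core subunits and the positive slope. WT mice 3 and 4 also had positive slopes, with core medians of -0.002 and -0.047 log2 units against the WT mean. With the length trend of each library removed, 3 of the 4 calls stood (*Psme1*, *Psme2*, *Psmg4*), the median over the 45 genes was -0.17 beside -0.03 for all genes, and 40 were negative. In RC/RC against WT the same step moved the median to 0.01 and left 23 of the 45 genes positive and 22 negative, in place of 32 and 13. For RC/RC:*Casp1*KO against WT the correlation with length was -0.03 and the median after this step -0.15.

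**Figure D4:**
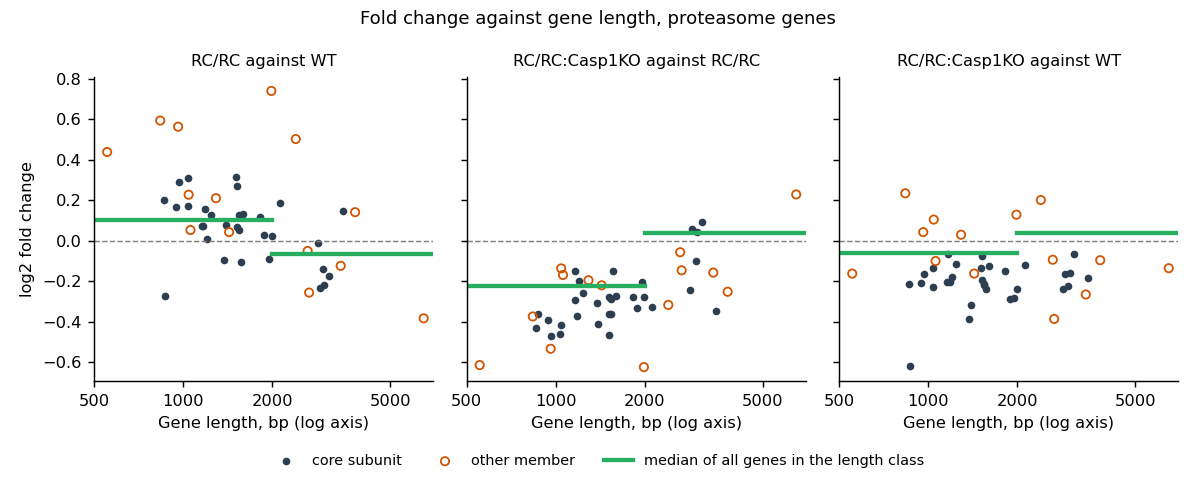
The log2 fold change against gene length (log axis, bp) for the 45 tested genes in each comparison, with the median of all tested genes under and from 2000 bp as lines. All 32 genes under 2000 bp lie below 0 in RC/RC:Casp1KO against RC/RC, where the median of all genes of that length is -0.22.

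The third comparison sets RC/RC:*Casp1*KO against WT. *Psmb5* alone was downregulated, and the other core subunits had lower means by small amounts. The single call is 2.22% of the 45 genes, beside 0.893% of 15346 genes called lower. None was called higher by edgeR, DESeq2 or limma, and 0 were higher at an unadjusted p under 0.05, beside 1.13% and 11.8% of all genes. *Psmb5* (chr14:54614120-54617995, minus strand) was at 73.6, 80.3, 96.0 and 73.4 CPM in the knockout mice, and all 4 were below the lowest WT mouse at 118 CPM. It fell by 0.62 on the log2 scale, to 0.652 of the WT level (SE 0.10, edgeR adjusted p = 0.0250). Per gene length its level went from 136 to 96.2 FPKM, and the highest of the 31 core genes was then *Psmb4* with 104 FPKM. The RC/RC mice were at 60.2, 110, 129 and 112 CPM for this gene. RC/RC mouse 3 lay among the WT mice, mice 2 and 4 lay between the knockout and the WT mice, and mouse 1 lay below both. The call was lost without any of knockout mice 1, 2 and 4 or WT mice 1, 2 and 4, with the log2 fold change between -0.64 and -0.58, and in those fits 49 to 72 of all genes were called lower in place of 137. A processed pseudogene, *Gm3375*, matched *Psmb5* at 98.5% over 799 bases and is not among the counted genes, so how its reads were assigned was not tested.

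All 31 core subunits had a negative log2 fold change in this comparison, with a median of -0.20, whereas 48.5% of all genes were negative, with a median of 0.01. At an unadjusted p under 0.05, 15 of the 45 genes (33.3%) were lower, beside 9.99% of all genes. The groups did not overlap downward for 9 genes, beside 6.54% of all genes, and upward for none, beside 7.4%. These were *Psmb2*, *Psmb5*, *Psmd5*, *Psmd6*, *Psmd8*, *Psmd11*, *Psmd12*, *Psmd13* and *Psme3*. *Psmd6*, *Psmd8*, *Psmd11*, *Psmd12* and *Psmd13* encode subunits of the 19S lid. *Psmd12* was at 69.6, 72.3, 63.1 and 62.7 CPM in WT and at 54.9, 51.6, 58.8 and 54.2 CPM in the knockout (log2 fold change -0.28, SE 0.08, edgeR adjusted p = 0.103). *Psmd6* was at 85.8, 82.6, 84.2 and 85.2 CPM in WT and at 60.5, 55.1, 82.1 and 60.3 CPM in the knockout (log2 fold change -0.38, SE 0.12, edgeR adjusted p = 0.132), with mouse 3 close to WT and the other 3 well below. *Psme3* was at 86.9, 74.4, 90.8 and 80.2 CPM in the knockout, below every WT mouse (log2 fold change -0.39, SE 0.09, edgeR adjusted p = 0.0621). *Psme1* (0.13, SE 0.13), *Psme2b* (0.23, SE 0.25), *Psmg3* (0.20, SE 0.26) and *Psmg1* (0.10, SE 0.16) were on the positive side, within 2 SE of 0. Without knockout mouse 3 there were 4 calls (*Psmb5*, *Psmc4*, *Psmd6* and *Psme3*), and the genes called lower over all those tested went from 137 to 242 of 15642. With scaling by library size alone, the median of all genes moved to 0.14 and that of the 45 genes to -0.04, with 30 negative.

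The promoter sequences of genes that carry the results are given to show which short motifs stand near their starts. RefSeq windows from 250 bases before to 50 bases after the start (mm10) were found for 39 of the 47 genes. The interferon-stimulated response element, taken as GAAA, any 2 bases and GAAA again, was sought on both strands. It occurs in 3.44% of 32851 such windows of all genes, and in those of *Psmb3*, *Psmd4*, *Psmd9*, *Psme1* and *Psmg4*. The letters TGACNNNGC, the antioxidant response element that NFE2L1 and NFE2L2 bind, occur in 12.4% of all windows and in those of *Psmb5*, *Psmb6*, *Psmc6*, *Psmd9*, *Psmd12* and *Psme4*. The windows with the gamma-activated site TTCNNNGAA, which reads the same on both strands, were those of *Psmd2* and *Psmg1*, beside 8.3% of all, and 14 of the 39 windows held CCAAT, beside 37.4%. None of the 4 motifs was found in the *Psme2* window, and *Psmb2* had no window. Stretches of 30 bases are shown along the gene strand for the 2 called genes with the first motif and for the catalytic genes with the second, with the match in capitals.
Psme1, chr14:55578493-55578522, plus strand: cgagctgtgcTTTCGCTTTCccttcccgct
Psmg4, chr13:34162969-34162998, plus strand: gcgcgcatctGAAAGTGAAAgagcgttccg
Psmb5, chr14:54618024-54618053, minus strand: acgtgaagttgTGACGTCGCggcgttgcca
Psmb6, chr11:70525337-70525366, plus strand: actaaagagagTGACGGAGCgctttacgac
In *Psme1* the match begins 10 bases into the transcript and lies on the opposite strand, and in *Psmg4* it begins 16 bases into the transcript. In *Psmb5* and *Psmb6* it begins 47 and 9 bases before the start. Positions are counted from the RefSeq start, which is the start in the deposited table for *Psmg4* and *Psmb5*, but lies 371 bases downstream of it for *Psme1* and 10 bases upstream for *Psmb6*. A match is a run of letters and not a measured binding site.

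Genes that work with the proteasome were listed by role, and 32 of 33 listed genes were matched and tested. The immunoproteasome genes rose in RC/RC against WT: *Psmb8* by a log2 fold change of 1.08 (SE 0.29, edgeR adjusted p = 0.0402), *Psmb9* by 0.94 (SE 0.23, adjusted p = 0.0256) and *Psmb10* by 0.93 (SE 0.22, adjusted p = 0.0239). With 1 mouse left out at a time, *Psmb8* kept its call in 2 of 8 fits, *Psmb9* in 4 and *Psmb10* in 3. Without RC/RC mouse 2 or WT mouse 2 or 4 all 3 genes lost it, and so did *Psmb8* and *Psmb9* without RC/RC mouse 1 and *Psmb8* and *Psmb10* without RC/RC mouse 3 or WT mouse 3 (edgeR adjusted p of up to 0.115). These genes encode the interferon-induced counterparts of *Psmb5*, *Psmb6* and *Psmb7*. Their summed level was 26.0 to 41.1 CPM in WT mice and 62.4, 80.5, 62.2 and 40.1 CPM in RC/RC mice. RC/RC mice 1 to 3 were above the WT mice and mouse 4 lay just within their range. In RC/RC:*Casp1*KO against RC/RC, *Psmb10* fell by 0.90 on the log2 scale (SE 0.20, edgeR adjusted p = 0.0259), from 29.7, 40.1, 33.7 and 20.8 CPM to 17.0, 16.9, 13.0 and 20.2 CPM. This call stood in 3 of the 8 fits with 1 mouse left out, those without RC/RC mouse 1 or 4 or knockout mouse 4, and was lost with library size alone and with limma (adjusted p = 0.0603 and 0.0664). *Psmb8* (-0.79, SE 0.30) and *Psmb9* (-0.47, SE 0.21) were lower without passing (edgeR adjusted p = 0.108 and 0.166). The order of the RC/RC mice was not that of the core subunits. RC/RC mouse 1, with low core subunits, had 122 CPM of *Psme1* and *Psme2* together, above the 101 CPM of the highest WT mouse.

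Besides the immunoproteasome genes, none of the partner genes reported here passed edgeR's threshold in any comparison. When RC/RC:*Casp1*KO was set against RC/RC, 9 of the 32 partners were lower at an unadjusted p under 0.05, *Psmb10* included, beside 16.4% of all genes, and limma called 0. When RC/RC:*Casp1*KO was set against WT, 2 of the 32 partners were higher and 7 lower at an unadjusted p under 0.05, beside 11.8% and 9.99% of all genes, DESeq2 called *Ddi2* higher and *Ubqln1* lower, and limma called *Ddi2*. *Ubb*, a ubiquitin gene, had a log2 fold change of 0.36 in RC/RC against WT (SE 0.16, edgeR adjusted p = 0.174). *Rps27a*, which encodes ubiquitin fused to a ribosomal protein, had a log2 fold change of -0.55 in the knockout against RC/RC (SE 0.16, edgeR adjusted p = 0.0553), where DESeq2 called it (adjusted p = 0.0136), and *Akirin2*, which carries proteasomes into the nucleus, -0.38 (SE 0.13, adjusted p = 0.0760).

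The regulators of proteasome transcription were not called by edgeR in any comparison. *Nfe2l1*, the transcription factor that restores proteasome levels, was at 342, 345, 231 and 226 CPM in the WT mice, 307, 293, 237 and 222 CPM in the RC/RC mice and 284, 256, 204 and 225 CPM in the knockout. The groups overlapped throughout, and in each group mice 1 and 2 were above mice 3 and 4. *Ddi2*, the protease that activates the *Nfe2l1* product, was at 104, 114, 113 and 108 CPM in WT and at 194, 148, 148 and 141 CPM in RC/RC:*Casp1*KO. All 4 knockout mice were above every WT mouse, and the log2 fold change of 0.53 (SE 0.11) was just above the threshold (edgeR adjusted p = 0.0526). *Nfe2l2* had log2 fold changes of 0.20 (SE 0.14) in RC/RC against WT and -0.31 (SE 0.11) in the knockout against RC/RC, without passing. *Pomp*, the maturation chaperone of the core, was at -0.44 (SE 0.15), and the 19S subunit genes *Adrm1* and *Sem1* (listed as *Shfm1*) at -0.38 (SE 0.20) and -0.37 (SE 0.15) in the knockout against RC/RC. None of these passed, and the deubiquitinase genes *Uchl5* (-0.32, SE 0.14) and *Usp14* (-0.13, SE 0.11) did not either. When the knockout was set against WT, the partners nearest a call besides *Ddi2* were the shuttle factor *Ubqln1* (-0.34, SE 0.11) and the ligase *Ube3c* (-0.19, SE 0.07).

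Markers of cell types moved with the groups, and in bulk tissue fewer cells of a type and less RNA per cell cannot be told apart. All 5 fibroblast markers, 4 of 5 macrophage markers and 6 of 6 T or B cell markers were called higher in RC/RC against WT, with median log2 fold changes of 2.47, 1.68 and 1.88. No listed marker of any type was at 0 in a whole group. The summed macrophage markers, led by *Csf1r* with 70.3 CPM in WT, were at 137, 121, 126 and 116 CPM in the WT mice, 325, 284, 251 and 230 CPM in the RC/RC mice and 197, 180, 136 and 269 CPM in the knockout. *Csf1r* itself did not fall in the knockout against RC/RC (log2 fold change 0.15, SE 0.19). The other macrophage markers there had log2 fold changes from -1.22 to -0.57. The summed fibroblast markers, led by *Pdgfrb* with 50.7 CPM in WT, were at 225, 157, 186 and 225 CPM in the WT mice, 885, 1431, 796 and 607 CPM in the RC/RC mice and 249, 360, 241 and 536 CPM in the knockout. RC/RC mouse 2 had the highest fibroblast markers and the highest *Psme1* and *Psme2*. The T or B cell markers were low throughout, led by *Cd3e* with 0.816 CPM in WT, and summed to 2.86 to 3.86 CPM in the WT mice, 9.05 to 16.3 CPM in the RC/RC mice and 3.97 to 11.5 CPM in the knockout. Of the proximal tubule markers, 2 of 5 were lower in RC/RC against WT and 2 of 5 higher in the knockout against RC/RC. *Slc22a6* of this list was at 241, 398, 1096 and 1006 CPM in the WT mice, 212, 184, 622 and 887 CPM in the RC/RC mice and 274, 278, 988 and 856 CPM in the knockout, so mice 1 and 2 were below mice 3 and 4 in all 3 groups, and no fit has a term for this division. The 5 markers summed to 7545, 8380, 11168 and 12230 CPM in the WT mice, 4932, 3331, 5663 and 8451 CPM in the RC/RC mice and 9378, 8970, 11379 and 9684 CPM in the knockout. Of the remaining lists, the thick ascending limb and distal tubule and the podocyte had 1 of 3 markers lower in RC/RC against WT, the injured tubule 2 of 3 higher and the red blood cell 4 of 4 lower, whereas collecting duct and endothelial markers had no calls in any comparison. When the knockout was set against RC/RC, 3 of 5 fibroblast and 2 of 5 macrophage markers were lower and 1 of 3 markers of the thick ascending limb and distal tubule was higher, and against WT 1 fibroblast and 1 T or B cell marker were higher and the 4 red blood cell markers lower. The part of these cell types in the proteasome values was not tested.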

How the data were processed

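Total kidney RNA of the 12 mice was isolated by the study, which had poly(A)-selected libraries sequenced and analyzed commercially. The submitters' processing notes name CASAVA 1.8, STAR and the mm10 build. The counting tool, its annotation and its use of strand are not given in the sources used here. The authors deposited a table of raw read counts per gene and mouse, without normalization, and a gene length in base pairs. Their own fold changes and p-values per pair of groups, group means and FPKM in that table were not used.

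Columns were assigned to groups by the strain, allele or deletion in their names, and columns of unknown group numbered 0. Mitochondrial genes took 7.78% to 12.1% of the counted reads. A chi-square test told apart the counts of both mice in each of the 18 pairs within groups (15.8 to 128 per degree of freedom). The labels do not state litters or batches, and p-values measure the spread between these mice.

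The 8 mice of each comparison were fitted in edgeR 4.0.16 under R 4.3.3 by the quasi-likelihood test, after TMM scaling and filterByExpr, and p-values were adjusted over all tested genes by Benjamini-Hochberg, with a threshold of 0.05. Standard errors were obtained from the log2 fold change and the F statistic. CPM used TMM factors of the 12 libraries, and FPKM was computed from the count, the gene length and the counted reads. The fits were also run on simulated counts, drawn for each gene separately. Those counts held no length trend and no division within groups, so they do not bear on either. Near copies were sought with BLAST 2.17.0 among GENCODE transcripts at 95% identity. Promoter windows are from RefSeq on GRCm38 (mm10).

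The rule for named genes took the catalytic subunits, the 4 genes with the smallest p in each direction per comparison, core subunits of opposite sign, 10 fixed partner genes and the 3 partners with the smallest p. *Psmd8*, *Psmd11*, *Psmd13*, *Psmc4* and other genes outside it were named after their values were seen. The result of 1 listed partner gene is not reported here. The genes and lists were chosen with earlier results of these data known. The alternatives were DESeq2 1.42.0, RLE factors, library size alone, no filter, a minimum of 10 counts per mouse, a dispersion shared by 12 mice, removal of the gene length trend (loess, span 0.5), limma 3.58.1 on FPKM with a pseudocount of 1 on the log2 scale, and the omission of 1 mouse at a time.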

Additional observations from a re-analysis of the deposited data

Results flagged for a closer look

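Of 99 groups of 4 mice examined for the genes named here, 2 held a mouse far from the others, and chance alone flags about 1 group in 20. *Casp1* was at 2.05 CPM in WT mouse 1, whereas the other WT mice had 1.29 to 1.41 CPM. *Ddi2* was at 194 CPM in RC/RC:*Casp1*KO mouse 1, whereas the other knockout mice had 141 to 148 CPM.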

How the results depend on the processing

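In RC/RC:*Casp1*KO against RC/RC, 4 proteasome genes were called lower. DESeq2 and a dispersion shared by 12 mice each called 7, the 4 genes included, no filter called 2 (*Psme1* and *Psme2*) and limma on log2(FPKM + 1) called 2 (*Psmg4* and *Psmd8*), so *Psmg4* was the only one of the 4 genes that limma called. Over all genes, DESeq2 called 1412 of 23917 lower and the shared dispersion 881 of 15428, in place of 681 of 15428. No filter called 515 of 23917 genes lower and limma 216 of 15428. Library size alone called 0 proteasome genes, where 179 of all genes were called lower in place of 681, and the other 3 alternatives called 3 or 4. *Psmb2* kept its call in 4 of the 8 alternatives, and *Psme1*, *Psme2* and *Psmg4* in 6 each. In RC/RC:*Casp1*KO against WT, where *Psmb5* alone was called, DESeq2 called 3, the shared dispersion called 0, and the other 6 alternatives called 1. Over all genes, DESeq2 there called 587 of 23885 lower and the shared dispersion 114 of 15346, in place of 137 of 15346. In RC/RC against WT, *Psme1* and *Psme2* were called under all 8 alternatives. There limma added *Psmb1*, with 1467 of all genes called higher in place of 1487. Leaving out 1 mouse at a time gave 0 to 2 genes called higher in RC/RC against WT, 0 to 15 called lower in the knockout against RC/RC and 0 to 4 called lower in the knockout against WT. No alternative called a gene in the opposite direction. *Psmb7* in RC/RC against WT went from 0.074 to -0.047 on the log2 scale and *Pomp* from 0.17 to -0.030 with the gene length trend removed. With library size alone and with limma, *Uchl5* was at 0.019 and 0.030 in RC/RC against WT (-0.072 by edgeR as reported) and *Nfe2l2* at 0.045 and 0.050 in the knockout against WT (-0.088 by edgeR as reported). With 1 mouse left out, the log2 fold change against RC/RC ran from -0.014 to 0.16 for *Psmd3* and from -0.0032 to 0.11 for *Psmd2*, and that against WT from -0.067 to 0.32 for *Psmg3*, from -0.010 to 0.22 for *Psmg1*, from -0.016 to 0.57 for *Psmb8* and from -0.10 to 0.19 for *Psmb10*. That of *Uchl5* in RC/RC against WT ran from -0.20 to 0.013. The cause of these differences was not tested. No paired analysis was possible because the columns carry mouse numbers that match no replicate number in the labels. With 4 mice per group and a median SD of up to 0.220 log2 units in the core subunits, the proteasome genes that were called had changes of 0.43 log2 units or more, and edgeR called no smaller change among them.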
